A study of Homo sapiens with 6 samples.

Results

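The intermediate filament genes of neural cells were followed in SH-SY5Y cells, a line from a human neuroblastoma that resembles immature sympathetic neurons, with and without DNAJC12. The 10 genes were chosen by symbol: the neurofilament subunits NEFL, NEFM and NEFH, alpha-internexin (INA), peripherin (PRPH), vimentin (VIM), nestin (NES), synemin (SYNM), the glial filament gene GFAP and the muscle filament gene DES. Of these, 9 had a row in the gene table of 20668 genes, and the same 9 passed the filter on low counts, among 16403 genes tested. GFAP had no row, and the transcript files listed 2 reads for it over all 6 libraries, both in knockout replicate 1. In the knockout cells 4 of these 9 rose, 2 fell and 3 stayed under the threshold; of the rises, those of NEFM and NEFH depended on which libraries were used. Over the whole set of genes tested, 26.0% passed in either direction, 14.5% as rises and 11.5% as falls. The 3 knockout values lay wholly above the 3 WT values for 4 of the filament genes and wholly below for 2, where 41.7% of all genes tested did either, 21.7% above and 20.1% below. The median log2 change was 0.11 over the 9 genes and 9.19e-06 over all genes tested.

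Intermediate filaments are ropes of coiled-coil proteins that give a cell mechanical strength and, in axons, set calibre. Vimentin, peripherin, desmin and the glial filament protein are type III subunits, which can build a filament alone. The neurofilament subunits, alpha-internexin, nestin and synemin are classed as type IV and mostly copolymerise with a partner. In developing neurons nestin and vimentin come first, followed by alpha-internexin and peripherin and then by the neurofilament triplet. Peripherin is typical of peripheral and sympathetic neurons, and alpha-internexin of central neurons.

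There were 3 libraries of wild-type (WT) cells and 3 of cells in which DNAJC12, the gene of a co-chaperone of HSP70, had been knocked out with CRISPR/Cas9. No treatment was given, per the labels, and the stated interest of the study is cell invasion. The labels do not say whether replicates were separate cultures or clones, nor how many clones the knockout cells came from, so the p-values rest on the scatter among these libraries alone, and it may be technical. Depth was between 19321842 and 21869659 counts per library, and 1 count therefore stood for 0.0457 to 0.0518 CPM before TMM scaling (CPM, counts scaled to the size of the library). DNAJC12 RNA was at 20.0 to 23.0 CPM in WT and at 4.85 to 5.91 CPM with the gene knocked out (-1.95 ± 0.13, edgeR adjusted p = 1.25e-06), so it was lower but still detected. The markers of sympathetic neuroblasts were all present in the table (10 of 10), with a summed level of 3214 to 3314 CPM in WT and 2684 to 2811 CPM in the knockout. Of the defining markers of other cells, the glial genes SOX10, FOXD3 and CDH19 and the muscle genes MYOD1, MYOG, MYF5, MYF6, ACTC1 and CKM had 0 reads in the transcript files. Changes are given as log2 of knockout over WT ± SE, estimated by the quasi-likelihood method of edgeR with 3 libraries per genotype. The p-values were adjusted by Benjamini and Hochberg's method over the 16403 genes, with a threshold of 0.05.

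The upstream sequences of the 4 genes with the clearest changes are shown first, to set those of INA and VIM, which rose, beside those of PRPH and SYNM, which fell. Where transcription started was not measured. A single RefSeq start was taken per gene. Whether the leading transcript of each gene, such as VIM-201 for VIM, starts there was not checked. Each is the 150 bases before the RefSeq start in GRCh38.p14, all on the plus strand, at chr10:103276988-103277137 for INA, chr10:17228091-17228240 for VIM, chr12:49294997-49295146 for PRPH and chr15:99104930-99105079 for SYNM. Capitals mark matches, searched on both strands, to the letters TATAAA of the TATA box, to the GC box GGGCGG and to the box named CCAAT. A match on the minus strand reads as the reverse complement, CCGCCC for the GC box and ATTGG for CCAAT.
INA: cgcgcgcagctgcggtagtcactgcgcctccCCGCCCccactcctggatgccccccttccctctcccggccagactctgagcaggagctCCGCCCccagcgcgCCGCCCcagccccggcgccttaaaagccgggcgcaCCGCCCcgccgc
VIM: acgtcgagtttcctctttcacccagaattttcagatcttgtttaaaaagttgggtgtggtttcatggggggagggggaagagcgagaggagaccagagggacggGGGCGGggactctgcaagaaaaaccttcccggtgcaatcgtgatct
PRPH: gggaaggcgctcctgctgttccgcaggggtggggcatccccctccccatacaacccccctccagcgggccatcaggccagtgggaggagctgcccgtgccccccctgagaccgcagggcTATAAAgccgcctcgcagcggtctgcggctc
SYNM: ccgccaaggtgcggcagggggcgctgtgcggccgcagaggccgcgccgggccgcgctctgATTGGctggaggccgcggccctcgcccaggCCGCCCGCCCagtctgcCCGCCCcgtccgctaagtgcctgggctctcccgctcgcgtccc
Of the 4 windows, that of PRPH alone held TATAAA, from 31 to 26 bases before the start, and it had no GC box. INA held 4 GC boxes, SYNM 3, of which 2 overlap, and VIM 1. SYNM also held CCAAT on the minus strand, read as ATTGG. Over 35116 promoters of the same length, 6.71% held TATAAA, 36.8% GGGCGG and 23.5% CCAAT. The share of G and C was 77.3% for INA, 80.0% for SYNM, 71.3% for PRPH and 52.7% for VIM, around a median of 60.0% over all promoters. A match describes the letters only.

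Levels of different genes were compared in TPM (transcript abundance scaled to the library, which divides by transcript length). VIM was the most abundant intermediate filament RNA in each library, at 1701 ± 79.3 TPM (SD, n = 3) in WT and 2543 ± 68.5 TPM in the knockout. NES, the progenitor subunit, came next at 71.7 ± 10.6 and 74.1 ± 11.1 TPM. In WT the order then ran through PRPH (34.8 ± 3.69 TPM), NEFL (25.3 ± 1.32), NEFM (19.8 ± 1.71), NEFH (15.5 ± 0.218), SYNM (8.78 ± 0.886) and INA (4.57 ± 0.235), and no 2 neighbours in this order overlapped between their 3 libraries. The place of PRPH rests on short transcripts that hold part of its reads. Its full coding transcript PRPH-201 alone stood at 18.1 ± 2.94 TPM in WT and 3.21 ± 0.725 TPM in the knockout. In the knockout NEFM (28.0 ± 7.89 TPM), INA (22.8 ± 2.76), NEFL (22.4 ± 5.34) and NEFH (18.3 ± 2.51) formed an overlapping band, each sharing part of its range with the next, while PRPH (7.24 ± 0.463) and SYNM (4.81 ± 0.446) lay below it without overlap.

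**Figure D1:**
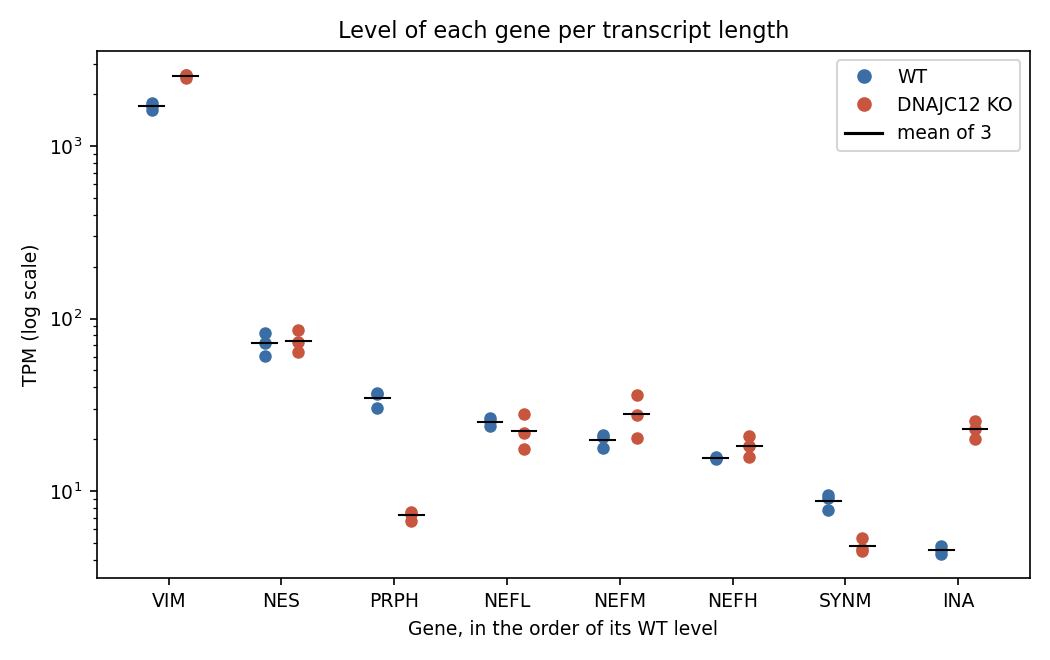
Level of 8 intermediate filament genes in TPM on a log axis, with 1 point per library (3 WT, 3 knockout) and a line at each mean; DES is left out because it is listed at 0 in some libraries. INA moves from the lowest level in WT into the band of the neurofilament genes, while PRPH drops below that band.

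Alpha-internexin, a subunit that joins the neurofilament triplet in axons, rose about as far as peripherin fell, and these were the widest changes of the 9 genes. Which was wider depended on the scaling: with library size alone INA changed by 2.33 and PRPH by -2.38. INA (ENSG00000148798, chromosome 10, 103277138 to 103290346 in GRCh38.p14) had 193, 204 and 200 counts in WT replicates 1 to 3, and 904, 1197 and 1121 in the knockout replicates. As CPM these were 9.34, 10.4 and 10.2 against 46.0, 57.6 and 52.3, so that the lowest knockout library was far above the highest WT library. The change was 2.38 ± 0.11 (edgeR adjusted p = 1.47e-07), or 5.21-fold (95% interval 4.38 to 6.20). A single transcript, INA-201, held all of its reads.

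Peripherin, the type III subunit of sympathetic neurons, fell by a like amount. PRPH (ENSG00000135406, chromosome 12, 49295147 to 49298686) had 554, 516 and 540 counts in WT, against 115, 94 and 123 in the knockout. Its CPM values were 26.8, 26.2 and 27.6 in WT and 5.86, 4.53 and 5.74 in the knockout, with no overlap and a spread of at most 0.736 CPM (SD) within either genotype. The change was -2.32 ± 0.12 (edgeR adjusted p = 3.39e-07), 5.00-fold lower in the knockout. By absolute fold change, INA and PRPH ranked 544 and 557 among the 16403 genes tested.

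**Figure D2:**
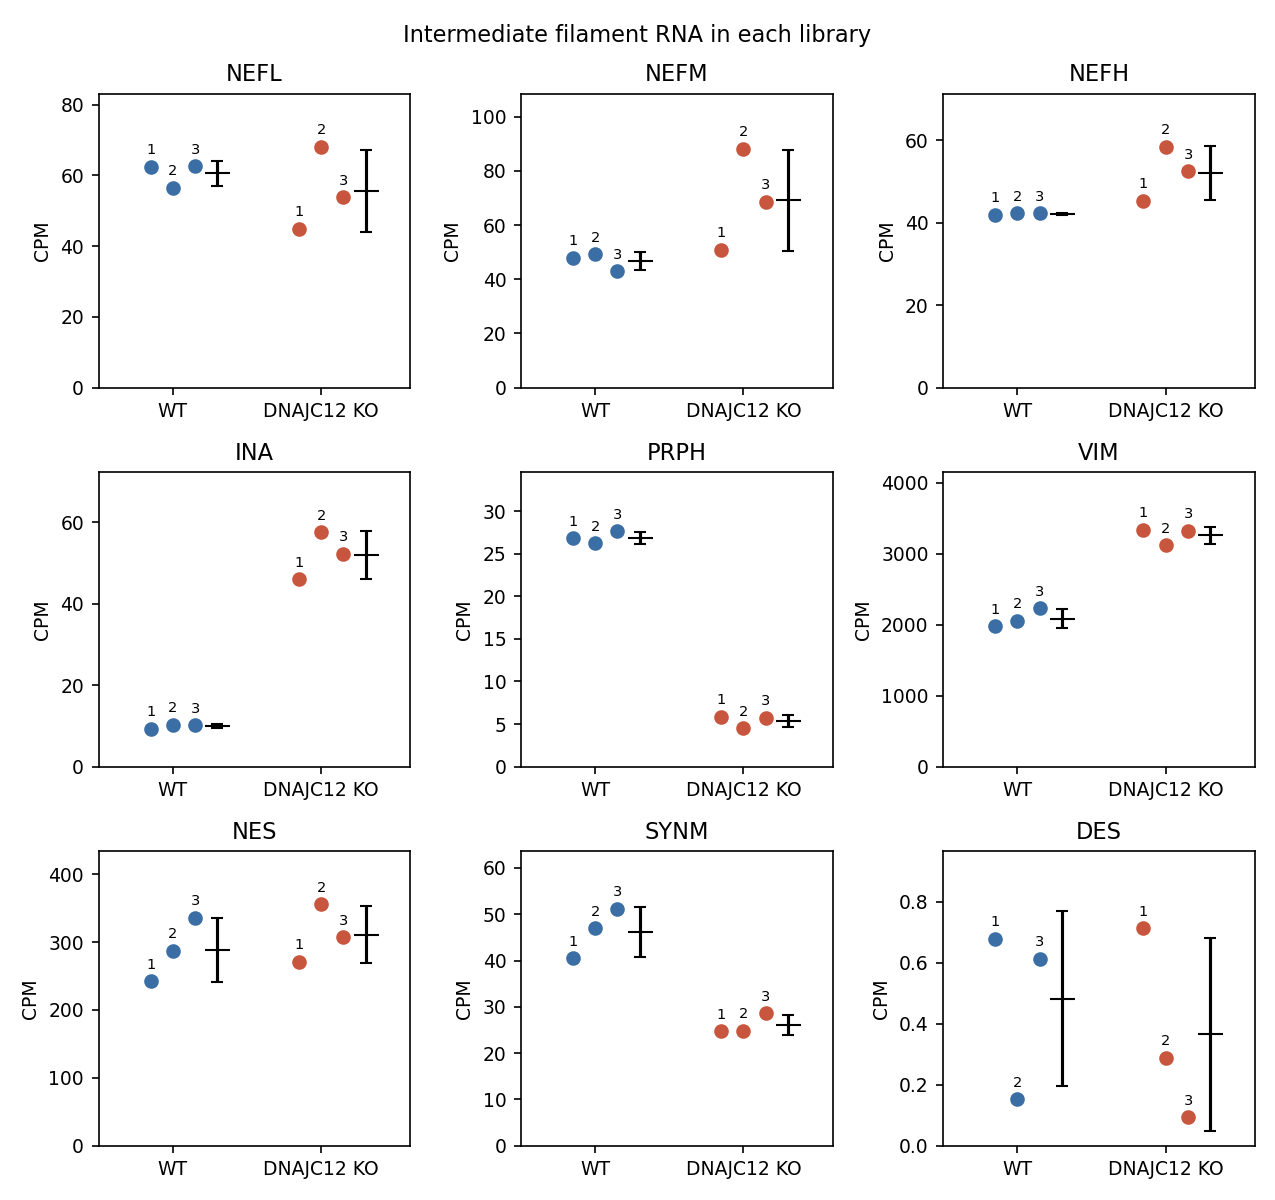
CPM of the 9 intermediate filament genes in each library (y axes from 0 and different per gene; numbers are replicate numbers; the line with caps is mean ± SD, n = 3). INA, VIM, NEFM and NEFH lie wholly higher in the knockout, PRPH and SYNM wholly lower, and NEFL, NES and DES overlap.

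The 3 neurofilament subunits differed among themselves. NEFM, the medium subunit, had 47.9, 49.2 and 42.9 CPM in WT and 50.9, 88.2 and 68.6 CPM in the knockout, a change of 0.57 ± 0.16 (edgeR adjusted p = 0.0257). The genotypes did not overlap, but knockout replicate 1 lay close to the WT values. NEFH, the heavy subunit whose long tail is phosphorylated in axons, had 41.9, 42.3 and 42.3 CPM in WT and 45.3, 58.4 and 52.5 CPM in the knockout, a change of 0.30 ± 0.10 (adjusted p = 0.0431). Both calls sat near the threshold. NEFM did not pass without WT replicate 1, 2 or 3 or knockout replicate 3, nor on length-corrected counts taken from transcripts (edgeR adjusted p from 0.0653 to 0.120), and NEFH did not pass in 9 of 15 alternatives, among them leaving out any WT replicate or knockout replicate 2 or 3 (adjusted p up to 0.136). NEFL, the light subunit on which the triplet assembles, had 62.5, 56.5 and 62.6 CPM in WT and 44.9, 68.1 and 53.8 CPM in the knockout, which overlap. Its change of -0.12 ± 0.13 did not pass (adjusted p = 0.555), with a 95% interval from -0.41 to 0.17. Without knockout replicate 2 it was -0.30 and passed (edgeR adjusted p = 0.0443). NEFL and NEFM are neighbours on chromosome 8, 31862 bases apart.

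The scatter of the neurofilament genes within the knockout had an order. Knockout replicate 1 was the lowest and replicate 2 the highest of the knockout libraries for 5 of 8 genes, namely NEFL, NEFM, NEFH, INA and NES. For VIM and PRPH it was replicate 2 that was lowest. The coefficient of variation of NEFM was 26.9% in the knockout and 7.11% in WT, and that of NEFL 21.1% and 5.75%. Knockout replicates 1 and 2 were also the pair of same-genotype libraries that differed most over all genes, with a chi-square per gene of 22.7 where the other pairs had 4.27 to 9.35. The part of this difference in the neurofilament values was not tested.

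Ratios were also taken within each library, where values that scatter together cancel. The NEFL to NEFM ratio in TPM was 1.30, 1.14 and 1.424 in WT and 0.864, 0.779 and 0.783 in the knockout, without overlap, so NEFL was the more abundant of the pair in each WT library and the less abundant in each knockout library. The NEFH to INA ratio was 3.59, 3.28 and 3.34 in WT and 0.786, 0.813 and 0.806 in the knockout. For INA to PRPH the values were 0.142, 0.131 and 0.123 in WT and 2.63, 3.80 and 3.09 in the knockout, a shift of 4.57 on the log2 scale and the widest of the 28 pairs of the 8 genes other than DES. With 3 libraries against 3, the exact permutation test (two-sided) cannot go below p = 0.1. Of the 28 pairs, 23 did not overlap between genotypes, and these 3 are among them. No share was taken over pairs of other genes, so this count has no background. A ratio can separate where either of its genes does, and INA, PRPH, VIM and SYNM each did so alone. Each of these 3 ratios reached 0.1, and 0.122 after Benjamini-Hochberg adjustment over the 28 pairs, which share genes.

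As shares of the summed TPM of NEFL, NEFM, NEFH, INA and PRPH, the neuronal subunits, PRPH held 31.3%, 35.8% and 37.0% in WT and 9.37%, 5.73% and 7.54% in the knockout. INA held 4.45%, 4.70% and 4.57% in WT and 24.6%, 21.8% and 23.3% in the knockout. The share of NEFM was 19.8% ± 1.76 in WT and 28.0% ± 2.89 (SD, n = 3) in the knockout, and that of NEFL 25.3% ± 1.91 and 22.6% ± 1.26, the last overlapping between genotypes. The sum itself was 100.02 ± 2.37 TPM in WT and 98.8 ± 18.0 TPM in the knockout (exact permutation p = 0.9, two-sided), with knockout libraries at 81.3, 117 and 97.7 TPM. With PRPH counted by PRPH-201 alone, a setting chosen after seeing the data, the sum was 83.4 ± 4.44 and 94.7 ± 17.8 TPM (exact permutation p = 0.4). Under that setting the difference in the NEFL share was -6.86 points in place of -2.78 and its genotypes no longer overlapped (29.4% to 31.8% in WT, 22.7% to 24.9% in the knockout). The difference in the PRPH share was -18.1 points in place of -27.2, and the NEFH share overlapped between genotypes (17.6% to 19.3% and 18.4% to 20.3%). The spread of the knockout libraries is too wide to say that the sum was equal.

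**Figure D3:**
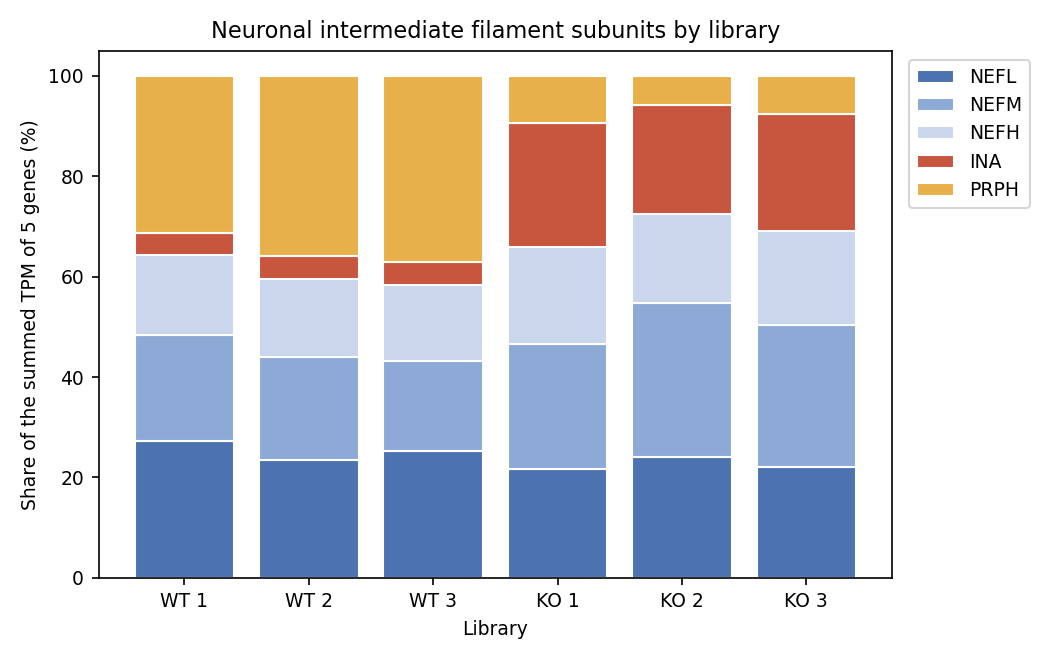
Share of each neuronal subunit gene in the summed TPM of the 5 genes (y axis, percent) in each of 6 libraries (x axis). PRPH takes 31.3% to 37.0% in WT and 5.73% to 9.37% in the knockout, and INA 4.45% to 4.70% and 21.8% to 24.6%.

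Vimentin, the general filament of precursor and mesenchymal cells, rose from an already high level. VIM (ENSG00000026025, chromosome 10, 17228241 to 17237593) was at 1977, 2052 and 2230 CPM in WT and at 3338, 3122 and 3323 CPM in the knockout. The lowest knockout value was above the highest WT value, and the change was 0.64 ± 0.06 (edgeR adjusted p = 1.79e-05), or 1.56-fold (95% interval 1.43 to 1.71). VIM took 90.4% ± 0.253 (SD, n = 3) of the summed TPM of the intermediate filament genes in WT and 93.4% ± 1.16 in the knockout. The type IV genes together took 7.74% ± 0.149 and 6.27% ± 1.17. The summed type IV level itself was 146 ± 9.61 TPM in WT and 170.4 ± 29.5 TPM in the knockout and overlapped (exact permutation p = 0.3), so the lower share stands beside no detected fall in level. The groups did not overlap for either share (exact permutation p = 0.1, two-sided, the smallest possible; 0.136 adjusted over 15 shares). The leading transcript VIM-201 held 98.2% to 98.8% of the TPM of VIM in each library.

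VIM-AS1, a transcript antisense to VIM, had 56, 57 and 73 counts in WT and 126, 104 and 111 in the knockout (0.83 ± 0.21, edgeR adjusted p = 0.0143). The libraries were stranded, per the labels, but no source used here gives the strand setting of the counting, so reads of the pair may be mixed. Of 9 markers of mesenchymal cells tested, 4 rose, 1 fell and 4 did not pass (55.6% passed, beside 26.0% of all genes). SNAI2 (1.85 ± 0.30), PDGFRA (1.65 ± 0.09), COL1A1 (0.97 ± 0.09) and FN1 (0.43 ± 0.08) rose, and PRRX2 fell (-0.47 ± 0.11). TWIST1 (0.15 ± 0.05), TWIST2 (-0.11 ± 0.18), PDGFRB (-0.09 ± 0.08) and COL1A2 (0.60 ± 0.34) did not pass. The summed level of the 9 was 832 to 893 CPM in WT and 1093 to 1137 CPM in the knockout, and PRRX1 had 7 reads in total in the transcript files. Their part in the VIM result was not tested. In bulk RNA, a change in the share of cells with a gene and a change in RNA per cell cannot be told apart.

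The genes whose log2 CPM was most like that of VIM over the 6 libraries, of 13646 genes whose mean reached 2 CPM, were the caveolar coat gene CAVIN1, the argininosuccinate lyase gene ASL, PLEKHA6, ARHGAP6 and the TNF receptor family gene TNFRSF9. Their Pearson r with VIM was 0.999 each, a description over libraries that fall into 2 genotypes. CAVIN1 went from 61.2, 68.8 and 78.0 CPM in WT to 180, 162 and 174 CPM in the knockout. Within each genotype its libraries had the same order as for VIM, which the choice by r favours.

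Synemin, a large type IV protein that links vimentin or desmin filaments to adhesion sites, fell. SYNM (ENSG00000182253, chromosome 15, 99105080 to 99141767) was at 40.5, 46.9 and 51.2 CPM in WT and 24.7, 24.8 and 28.6 CPM in the knockout, without overlap. The change was -0.82 ± 0.11 (edgeR adjusted p = 0.000246), 1.77-fold lower in the knockout. Between the transcripts SYNM-202 and SYNM-204 the estimated split varied more between replicates than between genotypes: SYNM-202 held 89.8%, 79.4% and 96.0% of the gene's TPM in WT and 65.8%, 96.1% and 68.7% in the knockout (exact permutation p = 0.4, two-sided). Its antisense transcript SYNM-AS2 had 13, 9 and 11 counts in WT and 9, 6 and 3 in the knockout, too few to be tested.

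Nestin, a long type IV protein that needs vimentin to form filaments and marks neural progenitors, was at 242, 287 and 336 CPM in WT and 271, 355 and 307 CPM in the knockout. These ranges overlap. The change of NES (ENSG00000132688, chromosome 1) was 0.11 ± 0.12 (edgeR adjusted p = 0.574), with a 95% interval from -0.16 to 0.38. The VIM to NES ratio in TPM was 26.7, 23.4 and 21.7 in WT and 40.5, 28.7 and 35.5 in the knockout, without overlap. This pair is among the 23 of 28 that did not overlap, a count without a background, and VIM alone did not overlap either.

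Desmin, the filament of muscle, was near the limit of detection. DES had 14, 3 and 12 counts in WT and 14, 6 and 2 in the knockout, where 3 counts is taken as the floor of a library. Its change of -0.42 ± 0.71 did not pass (edgeR adjusted p = 0.726), and the 95% interval from -1.999 to 1.17 includes changes in either direction. The reads assigned to GENCODE transcripts of DES fell on retained-intron transcripts, with 0 on the coding transcript DES-201. In WT replicates 2 and 3 and knockout replicate 1 these reads were 0, 0 and 2.46, fewer than the 3, 12 and 14 counts above. Where the other counts came from was not determined.

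PRPH RNA was also split over several transcripts. PRPH-201 held 70.3%, 43.6% and 45.4% of the gene's TPM in WT and 49.8%, 35.7% and 46.8% in the knockout. The retained-intron transcript PRPH-203 held 0%, 33.1% and 26.2% in WT and 29.1%, 20.2% and 26.7% in the knockout. The share of neither transcript separated the genotypes, and over the 7 transcript shares of PRPH and SYNM tested the adjusted exact permutation p was at least 0.933 (two-sided). The fall of PRPH was seen in the reads of PRPH-201 itself, with 512, 360 and 390 in WT and 92.0, 59.7 and 90.2 in the knockout.

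**Figure D4:**
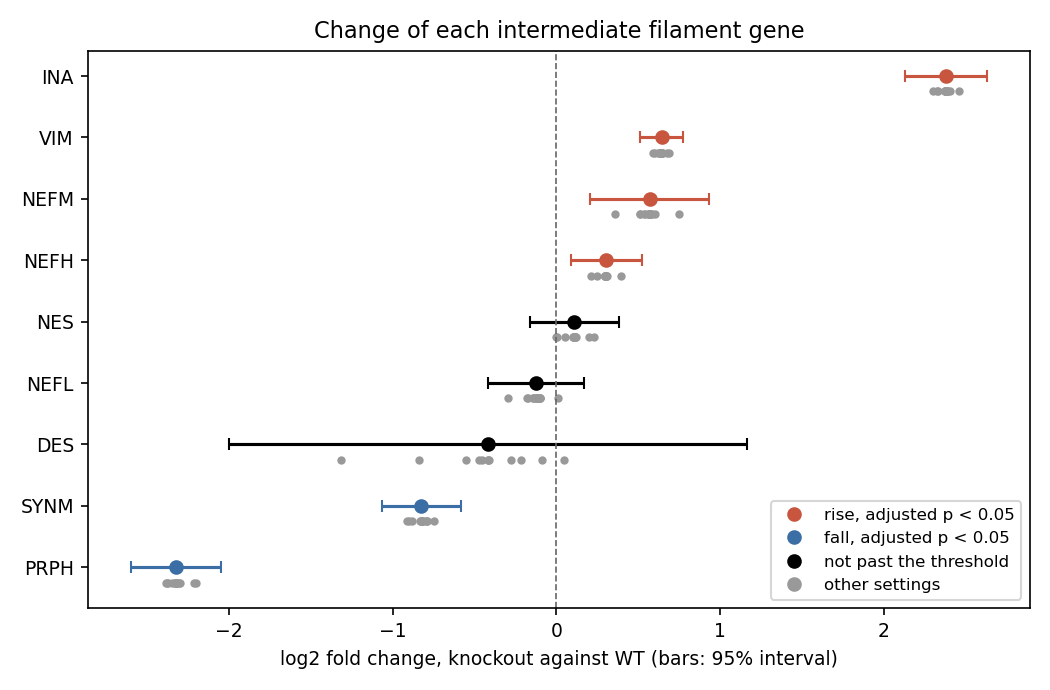
Log2 fold change of the 9 genes in the knockout (points with 95% intervals from edgeR) and under the other settings (grey points below each). INA (2.38) and PRPH (-2.32) lie far from the other genes, and the intervals of NES, NEFL and DES include 0.

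Genes that act with these filaments were counted in 7 lists. Over all genes tested, 26.0% passed the threshold, 14.5% as rises and 11.5% as falls. Among 11 other intermediate filament genes with a test, rises numbered 5, falls 0 and the rest 6 (45.5% past the threshold), with a median of 0.19 where the median over all genes tested was 9.19e-06. The simple epithelial keratins KRT8 (from 1.52 ± 0.0479 to 14.6 ± 1.90 CPM, SD, n = 3, a change of 3.26 ± 0.17) and KRT18 (2.98 ± 0.09), which pair with each other, rose, as did the orphan filament gene IFFO2 (0.85 ± 0.18) and the lens filament gene BFSP1 (1.55 ± 0.36). The other keratin genes tested, KRT19 (-1.23 ± 0.41, edgeR adjusted p = 0.0512) and KRT10 (-0.19 ± 0.11), did not pass. The CPM values of KRT19 were lower in the knockout without overlap. The nuclear lamin genes did not pass: LMNA changed by -0.12 ± 0.07, LMNB1 by -0.01 ± 0.10 and LMNB2 by 0.19 ± 0.08.

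Of 11 linkers that tie filaments to membranes, microtubules and actin, 1 rose, 3 fell and 7 did not pass (median -0.14). The share past the threshold was 36.4%, beside 26.0% of all genes. The spectraplakin gene MACF1 rose (0.36 ± 0.10). UTRN (-0.91 ± 0.16) and DTNA (-0.54 ± 0.10), whose proteins belong to the dystrophin complex to which synemin binds, fell, and so did EPPK1 (-0.61 ± 0.19). Of the same complex, DMD (-0.14 ± 0.16) and DTNB (-0.02 ± 0.10) did not pass. PLEC, the gene of the main vimentin linker plectin, changed by 0.11 ± 0.07 and did not pass.

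Of 25 kinase and phosphatase genes whose products act on filament heads and tails, 5 rose, 2 fell and 18 did not pass (28.0% past the threshold, near the 26.0% of all genes; median 0.04). The regulatory subunit gene of protein phosphatase 2A PPP2R2B (2.36 ± 0.11), the CDK5 activator gene CDK5R2 (1.74 ± 0.16) and the neuronal JNK gene MAPK10 (1.04 ± 0.13) rose. CAMK2A fell (-3.18 ± 0.39), from 61, 51 and 49 counts to 5, 4 and 9. CDK5 itself changed by -0.09 ± 0.07 and did not pass.

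Of 13 chaperone and turnover genes, 4 rose, 2 fell and 7 did not pass (46.2% passed, beside 26.0% of all genes, median 0.07). CRYAB, a small heat shock protein that binds desmin and the glial filament protein, rose from 10, 3 and 6 counts to 50, 51 and 62 (3.03 ± 0.41). PADI2, an enzyme that citrullinates vimentin, rose from 0, 7 and 2 counts to 57, 40 and 49 (3.92 ± 0.65), and the calpain gene CAPN2 rose as well (0.74 ± 0.06). HSPB1 fell (-0.33 ± 0.07).

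Of 12 axonal transport genes, 4 rose, 1 fell and 7 did not pass (41.7% passed, beside 26.0% of all genes, median 0.16). The kinesin genes KIF5C (1.15 ± 0.12) and KLC1 (0.29 ± 0.06) and the dynactin gene DCTN1 (0.24 ± 0.06) rose, and the dynein intermediate chain gene DYNC1I1 fell (-0.45 ± 0.10). Of 12 neuronal cytoskeleton and maturation genes, 6 rose, 0 fell and 6 did not pass (50.0% passed, beside 26.0% of all genes, median 0.38). They included ELAVL4 (2.10 ± 0.09), MAP1B (1.39 ± 0.07), SNAP25 (1.95 ± 0.10) and MAP2 (1.15 ± 0.15), whereas TUBB3 (0.27 ± 0.09), DCX (-0.10 ± 0.10) and STMN2 (0.13 ± 0.06) did not pass.

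Of 13 neural progenitor genes 7 were tested, and 3 rose and 2 fell (71.4% passed, beside 26.0% of all genes, median 0.04). SOX2, a progenitor transcription factor often expressed with nestin, fell from 18.4 ± 1.47 to 6.01 ± 0.472 CPM (SD, n = 3), a change of -1.62 ± 0.12. CDH2 fell (-0.33 ± 0.08), and NOTCH1 (0.48 ± 0.14) and PROM1 (1.59 ± 0.40) rose. Among the sympathetic neuroblast markers 3 rose and 5 fell of 10 (80.0% passed, beside 26.0% of all genes). These included a rise in HAND1 (0.61 ± 0.08) and a fall in DBH (-0.69 ± 0.09). Of the glial markers 1 of 5 tested passed (20.0%, beside 26.0% of all genes), namely ERBB3 (-0.96 ± 0.31). The summed level of the glial markers was 8.49 to 10.1 CPM in WT and 8.63 to 9.52 CPM in the knockout. Of the muscle markers TNNT2 rose from 18, 15 and 3 counts to 58, 47 and 66 (2.20 ± 0.47), and the summed level was 2.89 to 3.73 CPM in WT and 4.62 to 5.30 CPM in the knockout. The endothelial markers summed to at most 0.815 CPM in any library.

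**Figure D5:**
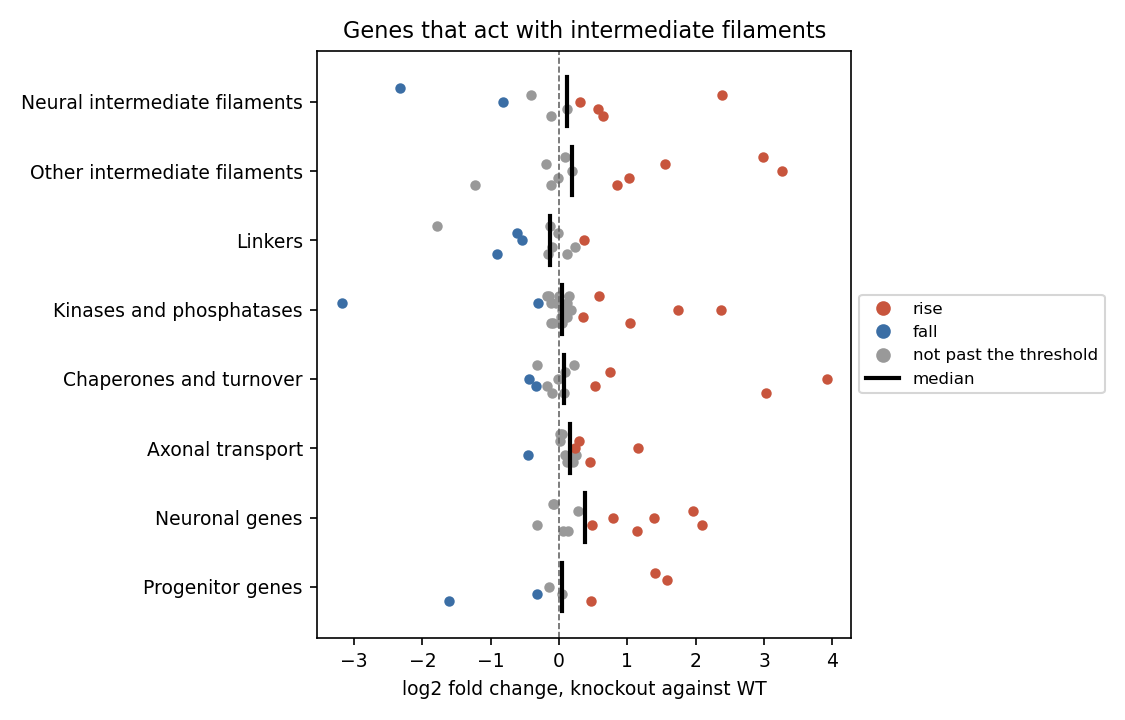
Log2 fold change of each tested gene (points) in the intermediate filament genes of neural cells and in 7 related lists, with the median of each list as a black bar. The medians run from -0.14 for the linkers to 0.38 for the neuronal genes, and each list holds genes that did not pass the threshold.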

How the data were processed

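Ribosomal RNA was removed before stranded libraries were made, per the labels' protocols. The submitters' processing notes name cutadapt 3.5, Salmon 1.10.0, DESeq2 1.42.1 and GRCh38.p14; their roles, and the annotation used, are not given in the sources used here. The authors deposited a table of counts per gene, whole numbers that are not normalized, and transcript files that hold, per the file headers, TPM and estimated counts. Repeated rows (403) were removed, leaving 20668 genes; totals of 19321842 to 21869659 counts set the precision. Transcripts were assigned to genes by GENCODE 29 (94.2% to 94.6% of reads). Counts were tested with edgeR 4.0.16 (R 4.3.3; filterByExpr, TMM, quasi-likelihood test of genotype, adjusted p threshold 0.05). Alternatives were DESeq2 1.42.0, limma-voom (limma 3.58.1), other scalings and filters, leaving out each library, a replicate block, a threshold of 0.01 and rounded counts from the transcript files. Shares and ratios used TPM and exact permutation tests (scipy 1.17.1). On data simulated for 16403 genes, 67, 67 and 66 genes were changed 1.5-, 2- and 4-fold. Of these edgeR called 62.7%, 73.1% and 97.0%, with 4.32% of calls false. Far fewer genes were changed than the 26.0% called in the data, so these rates need not hold there.

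The genes and lists were chosen with earlier results of these data known. Named are all 10 filament genes, the 4 genes of each list with the smallest adjusted p past the threshold, and the 5 genes most like VIM, except some genes that are not reported here; the targeted gene, genes given as not past the threshold, antisense and neighbouring genes were added after values were seen. Replicate numbers were not used to pair the libraries in the main fit, since the labels state no pairing. Promoter sequences are from RefSeq; protein sequences were not used here.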

Additional observations from a re-analysis of the deposited data

How the results depend on the processing

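INA, PRPH, VIM and SYNM kept their direction and stayed past the threshold in all 15 alternatives, with ranges of 2.30 to 2.46, -2.39 to -2.20, 0.59 to 0.69 and -0.91 to -0.75. NEFM passed in 10 of 15 (0.36 to 0.75) and NEFH in 6 of 15 (0.21 to 0.40), and both kept their direction. NEFL passed in 1, without knockout replicate 2 (-0.30, adjusted p = 0.0443), and was 0.010 without knockout replicate 1. With a library left out NES ranged from -0.0031 (without WT replicate 1) to 0.23 and DES from -1.31 to 0.046 (without knockout replicate 3); neither passed in any alternative run. DES was not tested with at least 1 CPM in 3 libraries or on counts from the transcript files. The rises among the 9 genes numbered 2 in place of 4 with length-corrected transcript counts and at a threshold of 0.01; with a library left out there were 2 to 4 rises and 2 to 3 falls. Over all genes, 4270 calls became 2828 with the length correction (1212 falls) and 2663 at 0.01 (1062 falls); with a library left out there were 2966 to 4772 calls, 1758 to 2622 rises and 1208 to 2150 falls, the fewest falls without knockout replicate 3. With library size alone the split was 2055 rises and 2438 falls, in place of 2383 and 1887.

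Deviations from the group means had correlations of 0.0591, -0.0297 and -0.0652 between same-numbered libraries. Whether these libraries shared a culture or batch was not tested. The fit with a replicate block called 4565 genes, in place of 4270, and changed no call among the 9. With PRPH counted by PRPH-201 alone the knockout-minus-WT difference in its share was -18.1 points in place of -27.2, and that of NEFL -6.86 in place of -2.78. With a library left out, differences ranged from -28.9 to -26.0 points for PRPH, 18.0 to 19.4 for INA, -3.73 to -1.82 for NEFL, 2.52 to 3.66 for VIM and -2.09 to -0.932 for the type IV genes. For transcripts they ranged from -13.8 to -0.419 (PRPH-201), -4.32 to 12.3 (PRPH-203), -5.84 to 5.41 (PRPH-204), -0.223 to 4.10 (PRPH-206), -0.672 to 5.29 (PRPH-207), -21.2 to -6.00 (SYNM-202) and 7.35 to 22.5 (SYNM-204). The cause of these changes was not tested.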

Other observations

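The protein-coding genes tested on either side of the 9 filament genes were read from the same fit, a look chosen after the values were seen. Of 16 such neighbours that are not filament genes themselves, 2 rose and 2 fell (25.0%, near the 26.0% of all genes). TUBA1C, an alpha-tubulin gene 20547 bases from PRPH, fell from 14.1 to 3.70 CPM (-1.93 ± 0.19, edgeR adjusted p = 3.46e-05), beside the -2.32 of PRPH; reads of TUBA1C can be shared with near-identical tubulin copies. TROAP, on the other side of PRPH, changed by -0.24 ± 0.11 and did not pass. NT5C2 beside INA rose (0.36 ± 0.08), PCGF6 on its other side did not pass (0.20 ± 0.19), and IGF1R beside SYNM fell (-0.57 ± 0.07). ST8SIA6, 77828 bases from VIM, had 0 counts over the WT libraries and 94 over the knockout libraries, whereas TRDMT1 on the other side of VIM did not pass (-0.13 ± 0.15).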
